A study of Mus musculus with 15 samples.

Results

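Neurons keep cytosolic calcium low and release it from stores through a small set of transporters and channels, and 9 of their genes were followed here in mouse cortex: Atp2a2, Atp2b1, Atp2b2, Atp2b3, Atp2b4, Ryr2, Itpr1, Slc8a1 and Slc8a2. Every transcript of the deposited table that GENCODE M21 assigns to these genes was taken, whatever its values, which gave 21 of 10370 transcripts and 9 of 7740 genes. The libraries came from the cortex of male C57BL/6 mice labelled as 12 weeks of age, with 7 Sham and 8 HF-HI libraries from 1 month after the procedure. HF-HI (high-frequency head impact) mice received repeated impacts to the head in daily sessions under isoflurane, whereas Sham mice were handled and anesthetized alike without impacts. The labels name no engineered allele and no drug, and the comparison asks which transcripts differed in the cortex 1 month after the impacts.

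The 9 genes cover the main routes of calcium out of the cytosol and back into it. SERCA2, encoded by Atp2a2, pumps calcium into the endoplasmic reticulum, and the plasma membrane pumps PMCA1 to PMCA4, encoded by Atp2b1 to Atp2b4, push it out of the cell with high affinity. The exchangers NCX1 and NCX2, encoded by Slc8a1 and Slc8a2, trade calcium for sodium at higher capacity. The ryanodine receptor Ryr2 and the inositol trisphosphate receptor Itpr1 let calcium out of the reticulum, Ryr2 in answer to calcium itself and Itpr1 downstream of receptors coupled to phospholipase C.

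The libraries held 5798810 to 10582858 reads in the listed transcripts for Sham and 3496103 to 8666307 for HF-HI. The size factor, which scales a library for its depth, spanned 0.818 to 1.47 for Sham and 0.501 to 1.22 for HF-HI, so the shallowest libraries were all HF-HI (replicates 4, 7 and 2 at 0.501, 0.585 and 0.650). HF-HI replicate 2 also stood apart on the first principal component, at 12.6 against -3.35 to 0.721 for the other 14 libraries, and the member results with an unadjusted p under 0.05 are therefore also given without it. Markers of cortical excitatory neurons (4 of 4 listed), inhibitory neurons (3 of 3), astrocytes, oligodendrocytes and microglia (4 of 4 each) were listed and their summed levels overlapped between groups, with 1 of the 4 microglial genes, P2ry12, lower at an unadjusted p under 0.05. The choroid plexus marker Ttr spanned 21 to 8663 normalized counts in HF-HI and 35.0 to 6685 in Sham, and the summed striatal markers (4 of 5 listed) spanned 1437 to 3017 and 1698 to 3097, and their part in the results was not tested. Normalized counts are reads divided by the size factor.

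Ryr2 was the only gene of the 9 whose summed reads differed between groups at an unadjusted p below 0.05, and its difference was small. Among all 7869 genes and unassigned transcripts tested in the same way, 9.34% did so (5.1% higher and 4.24% lower in HF-HI), none passed an adjusted p of 0.1 (735 had an unadjusted p under 0.05), and the smallest adjusted p was 0.111 in limma with voom weights. The median log2 ratio of the 9 genes (HF-HI over Sham) was 0.03 against -0.00 for all genes, with 8 of 9 above 0, as were 48.6% of all genes. Whether a change reflects fewer cells of a type or less RNA per cell cannot be told apart in bulk tissue.

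**Figure D1:**
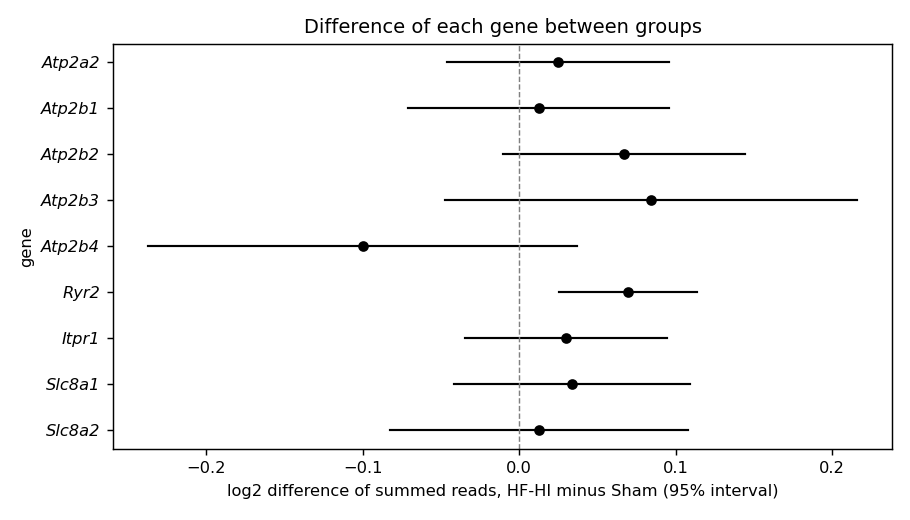
Difference of each gene between groups on the log2 scale (x axis, HF-HI minus Sham, points) with its 95% interval (lines), from summed reads of 7 Sham and 8 HF-HI libraries. The interval of Ryr2, 0.03 to 0.11, lies above 0, and the other 8 intervals include 0.

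Ryr2 messages, pooled over the 2 listed transcripts, had a lowest, median and highest value of 4663, 4834 and 4939.6 normalized counts in Sham and of 4859.7, 5051 and 5192 in HF-HI. Every HF-HI library (8 of 8) exceeded the median of Sham, and 7 of 8 exceeded the whole Sham range, with HF-HI replicate 5 inside the Sham range. A pattern of 7 or more HF-HI libraries above every Sham library occurred in 42 of 7869 genes (0.534%). The gene was 0.07 higher on the log2 scale in HF-HI (95% interval 0.03 to 0.11, unadjusted p = 0.00406, adjusted p = 0.290, limma with voom weights), with means of 4803 ± 117 (SD, n = 7) normalized counts in Sham and 5044 ± 102 (SD, n = 8) in HF-HI. Without HF-HI replicate 2 the difference was again 0.07 (unadjusted p = 0.00490, adjusted p = 0.320, limma), and with the log2 size factor as a covariate it was 0.05 (unadjusted p = 0.0482, adjusted p = 0.796, limma).

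The spread of the pooled Ryr2 counts was among the lowest in the table. Its coefficient of variation within groups was 2.21%, and 0.102% of genes had a lower one, the median gene having 8.48%. The counts behind each value were 2600 to 7121 reads per library.

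Of 14 annotated Ryr2 transcripts 2 are listed, and these share nearly all of their bases. Both lie on the minus strand of chromosome 13 (mm10, chr13:11553102-12106945 for Ryr2-201), have 105 exons and encode open reading frames of 14898 bases. They differ in a single coding stretch of 36 bases, at bases 773 to 808 of the transcript, and in 1 base at the 3′ end. Ryr2-201 takes this stretch from chr13:11903218-11903238 and chr13:11890834-11890848, and Ryr2-202 takes it from chr13:11900906-11900912 and chr13:11895192-11895220. Only 134 of 16715 windows of read length (100 bases) in Ryr2-201 occur in no other listed Ryr2 transcript, which is 0.802%. The stretch is shown because the division of reads between the 2 transcripts rests on it, with the stretch taken from different exons in capitals and 20 shared bases on each side (GENCODE M21 transcripts, 5′ to 3′).
Ryr2-201: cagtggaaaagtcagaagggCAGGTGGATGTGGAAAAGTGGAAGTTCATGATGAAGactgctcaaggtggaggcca
Ryr2-202: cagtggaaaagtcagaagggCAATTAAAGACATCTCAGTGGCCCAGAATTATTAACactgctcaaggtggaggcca

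The estimated division of Ryr2 reads between these forms varied far more than their sum. Ryr2-201 had a lowest, median and highest value of 2511, 2642 and 2792 normalized counts in Sham and of 2649, 3079 and 4477 in HF-HI. Ryr2-202 had 2042, 2186 and 2283 in Sham and 715, 1939 and 2327 in HF-HI. For Ryr2-201, 7 of 8 HF-HI libraries exceeded the whole Sham range, and the share of all transcripts with that pattern was not counted. Sham libraries were tightly grouped for both forms, and the HF-HI libraries ran from inside the Sham range to far outside it, with the most extreme values in HF-HI replicate 4 for both forms.

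Ryr2-201 was 1 of 2 transcripts of the 21 that passed an unadjusted p of 0.05 (9.52%, against 8.83% of all 10370 transcripts), and both were higher in HF-HI, as were 4.94% of all transcripts. None passed an adjusted p of 0.1, among the members or in the whole table (916 transcripts had an unadjusted p under 0.05), where the smallest adjusted p was 0.206 in limma. The log2 ratio of the Ryr2-201 means was 0.29, and the difference on the deposited variance-stabilized scale was 0.19 ± 0.06 (SE, unadjusted p = 0.00826, adjusted p = 0.405, limma). On that scale a doubling from 1000 normalized counts is worth 0.53. Ryr2-202 had a log2 ratio of -0.26 and a scale difference of -0.18 ± 0.10 (SE, unadjusted p = 0.0944, adjusted p = 0.629, limma), so it did not pass. Without HF-HI replicate 4 the Ryr2-202 difference was -0.09 (unadjusted p = 0.0886, adjusted p = 0.675, limma). The Ryr2-201 difference was 0.20 without HF-HI replicate 2 (unadjusted p = 0.00588, adjusted p = 0.386, limma), 0.14 without HF-HI replicate 4 (unadjusted p = 0.00385, adjusted p = 0.448, limma) and 0.12 with the log2 size factor as a covariate (unadjusted p = 0.109, adjusted p = 0.959, limma). Groups overlapped for all 21 member transcripts, and they did not overlap for 16 of the 10370 transcripts.

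As a share of the pooled gene, Ryr2-201 made up 53.5%, 54.2% and 57.8% (lowest, median, highest) in Sham and 53.2%, 61.0% and 86.2% in HF-HI. In 5 of 8 HF-HI libraries the share exceeded every Sham value, and in 1 it was below every Sham value. How often such a pattern occurred among all shares was not counted. In limma's diffSplice the log2 change of Ryr2-201 was 0.55 above that of Ryr2-202 (unadjusted p = 0.00587, adjusted p = 0.172). This is a difference between the forms and not of the share itself, and it is the same test for Ryr2-202 with the sign turned. Together with Atp2b3-201 (below), 3 of 18 member transcripts in genes with several listed forms had an unadjusted p under 0.05, 16.7% against 13.3% of all 4140 such transcripts (6.52% higher and 6.79% lower), and none of the 18 was among the 62 (1.5%) with an adjusted p under 0.1. The log2 change of Ryr2-201 minus that of Ryr2-202 was 0.61 without HF-HI replicate 2 (unadjusted p = 0.00376, adjusted p = 0.154, diffSplice), 0.37 without HF-HI replicate 4 (unadjusted p = 0.00182, adjusted p = 0.124, diffSplice) and 0.34 with the size factor as a covariate (unadjusted p = 0.121, adjusted p = 0.673, diffSplice). The size factors of the 4 HF-HI libraries with the highest Ryr2-201 values, replicates 4, 3, 1 and 7, were 0.501, 1.16, 0.984 and 0.585.

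**Figure D2:**
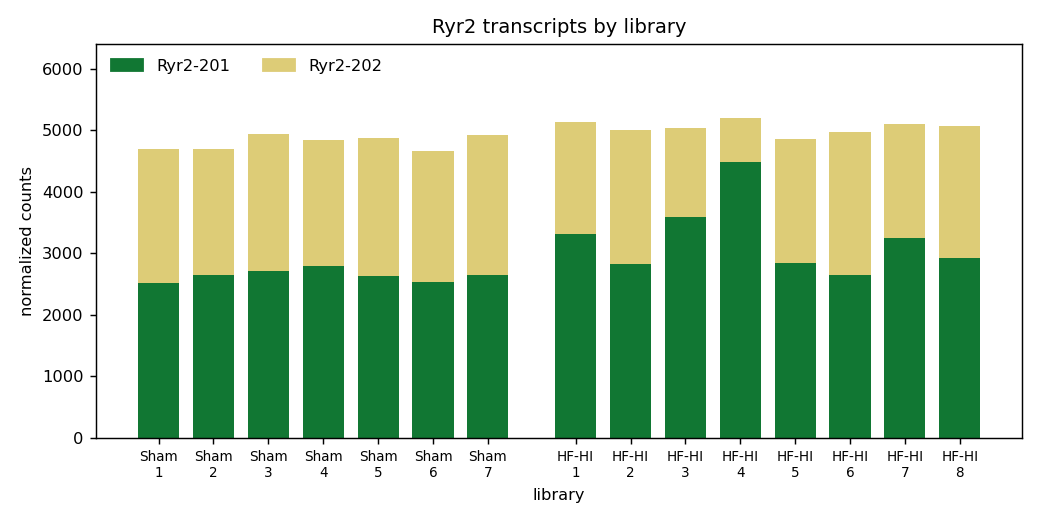
Normalized counts (y axis) of Ryr2-201 and Ryr2-202, stacked, in each of the 7 Sham and 8 HF-HI libraries (x axis). The stacks sum to 4663 to 5192, while Ryr2-202 falls to 715 in HF-HI replicate 4, where Ryr2-201 reaches 4477.

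Deviations of the Ryr2 forms from their group means ran in opposite directions over the 15 libraries (Pearson r = -0.97, Spearman rho = -0.86), and the points share reads that an estimate divided between them. The coefficients of variation within groups were 14.8% for Ryr2-201 and 19.5% for Ryr2-202.

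The second release channel, Itpr1, had no difference beyond its spread. Its single listed transcript (Itpr1-201, chr6:108213096-108551109, plus strand, mm10, 62 exons) had 8575, 8912 and 9564 normalized counts (lowest, median, highest) in Sham and 8317, 9179 and 9775 in HF-HI. The groups covered nearly the same range, and the gene differed by 0.03 on the log2 scale (95% interval -0.03 to 0.09, unadjusted p = 0.338, adjusted p = 0.804, limma with voom weights). Per kilobase of transcript, Itpr1 held 75.8% ± 1.01 (SD, n = 15) of the level of the 2 release channels and Ryr2 24.2% ± 1.01 (SD, n = 15). Itpr1-201 was the only listed transcript of 13 annotated, and 108 and 181 of its exonic bases overlap the antisense genes Gm44040 and Gm44101.

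Per kilobase, the most abundant messages of the 9 genes were those of 3 pumps. Atp2a2 led with 2116 ± 97.1 normalized counts per kb (SD, n = 15), followed by Atp2b2 with 1599 ± 112, Atp2b1 with 1217 ± 65.7, Itpr1 with 920.0 ± 37.9, Slc8a1 with 666 ± 32.1, Slc8a2 with 382 ± 23.6, Ryr2 with 293 ± 9.67, Atp2b4 with 218 ± 21.9 and Atp2b3 with 193 ± 18.7. Each gene was above the next in all 15 libraries, apart from the last pair, where Atp2b4 exceeded Atp2b3 in 13 of 15. The span from Atp2b3 to Atp2a2 was 10.9-fold. Among the 4 plasma membrane pumps, Atp2b2 made up 49.5% ± 1.85 and Atp2b1 37.7% ± 1.65 of the level per kilobase, whereas Atp2b4 made up 6.78% ± 0.883 and Atp2b3 5.99% ± 0.564 (SD, n = 15).

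**Figure D3:**
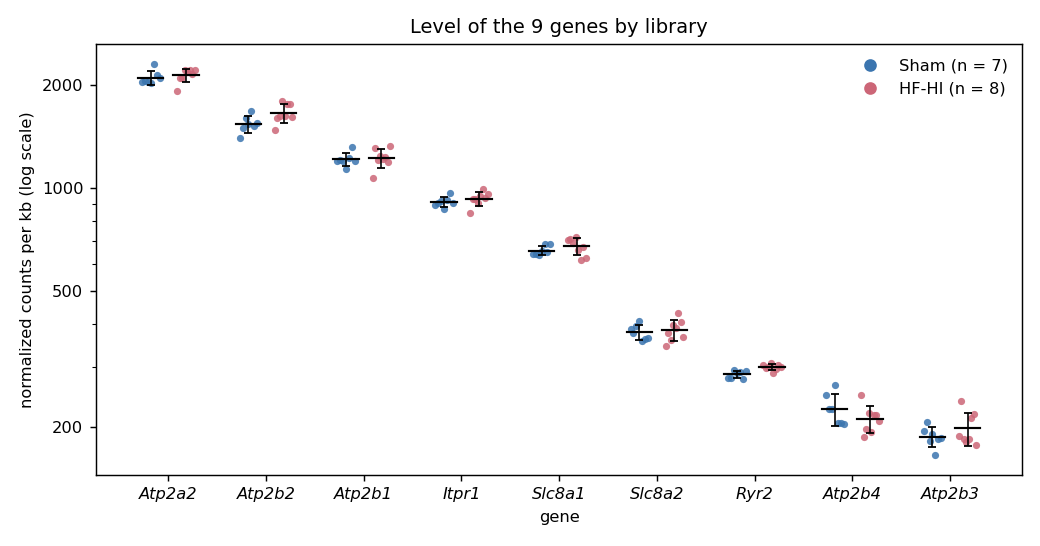
Level of each of the 9 genes in normalized counts per kb (y axis, log scale), with a point for each of the 7 Sham and 8 HF-HI libraries, the group mean (bar) and SD (whiskers). The order runs from Atp2a2 at 2116 to Atp2b3 at 193, and the groups overlap for every gene.

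Atp2a2, the pump that refills the reticulum, was close to the same level in both groups. Its pooled transcripts had 8701, 8824 and 9883 normalized counts (lowest, median, highest) in Sham and 8257, 9304 and 9500.0 in HF-HI, a difference of 0.02 on the log2 scale (95% interval -0.05 to 0.10, unadjusted p = 0.473, adjusted p = 0.871, limma with voom weights). In 7 of 8 HF-HI libraries the level was above the Sham median, but the lowest value of all 15 libraries was also HF-HI (replicate 1). The longer-tailed form Atp2a2-201, with an open reading frame of 3132 bases (SERCA2b, the form found in most cell types), made up 63.6% ± 1.68 of the gene in Sham and 64.7% ± 1.13 in HF-HI (SD). Atp2a2-202, with 2994 bases (SERCA2a, best known from heart muscle), made up the rest of the estimate. The log2 change of Atp2a2-201 minus that of Atp2a2-202 was 0.06 and did not pass the test (unadjusted p = 0.358, adjusted p = 0.748, diffSplice). Only 2 of 5 annotated Atp2a2 transcripts are listed, and the 791 bases that Atp2a2-201 lacks lie at the 3′ end of Atp2a2-202. Whether reads there came from SERCA2a messages alone was not tested.

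Atp2b2 encodes PMCA2, a fast pump known from cerebellar Purkinje cells and hair cells as well as cortex. The pooled gene had 10734, 11077 and 12212 normalized counts (lowest, median, highest) in Sham and 10531, 11855 and 12639 in HF-HI, with 7 of 8 HF-HI libraries above the Sham median. The difference of 0.07 on the log2 scale (95% interval -0.01 to 0.14, unadjusted p = 0.0849, adjusted p = 0.610, limma with voom weights) did not pass the test with all libraries. It did without HF-HI replicate 1 (0.09, unadjusted p = 0.00986, adjusted p = 0.346, limma), without Sham replicate 5 (0.09, unadjusted p = 0.0228, adjusted p = 0.409, limma) and with quality weights (0.08, unadjusted p = 0.0317, adjusted p = 0.411, limma). Of its 5 listed transcripts, 3 are annotated as protein coding, Atp2b2-206 as subject to nonsense-mediated decay and Atp2b2-204 as a retained intron.

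Atp2b2-202 is the member transcript with the second unadjusted p below 0.05. Its reading frame is set apart from those of the other listed protein coding forms by an insert of 135 coding bases at bases 1519 to 1653 of the transcript. The insert is read from 3 exons of 33, 60 and 42 bases at chr6:113803747-113803779, chr6:113802486-113802545 and chr6:113797110-113797151 (mm10, minus strand). This is the long insert at the first intracellular loop of the pump, known to steer PMCA2 to the apical membrane in polarized cells. Outside its reading frame, Atp2b2-202 also begins with 201 bases (chr6:113934481-113934681) that Atp2b2-201 and Atp2b2-203 do not hold. It lacks 2625 bases of the 3′ end of Atp2b2-201 and 4463 of that of Atp2b2-203, so its estimate does not rest on the insert alone. The insert is printed in capitals, with 20 bases on each side, as the coding stretch that sets this form apart from the other listed protein coding forms (GENCODE M21 transcripts, 5′ to 3′).
Atp2b2-202: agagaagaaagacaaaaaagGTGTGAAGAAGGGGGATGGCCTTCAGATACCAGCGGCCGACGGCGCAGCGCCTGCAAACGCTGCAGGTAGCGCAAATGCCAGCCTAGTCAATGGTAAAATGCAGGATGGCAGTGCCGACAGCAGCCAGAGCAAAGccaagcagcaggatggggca

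Atp2b2-202 had 840.4, 1210.0 and 1472 normalized counts (lowest, median, highest) in Sham and 1089, 1481 and 2095 in HF-HI. In HF-HI, 7 of 8 libraries were above the Sham median and 4 were above every Sham library. How often this occurred among all transcripts was not counted. The log2 ratio of means was 0.41 (1181 ± 205, SD, n = 7, against 1567 ± 349, SD, n = 8), and the difference on the variance-stabilized scale was 0.21 ± 0.07 (SE, unadjusted p = 0.0140, adjusted p = 0.448, limma). The 4 highest HF-HI values came from replicates 4, 6, 7 and 2, whose size factors of 0.501, 0.813, 0.585 and 0.650 were the 4 lowest of the group. With the log2 size factor as a covariate the difference was 0.07 (unadjusted p = 0.312, adjusted p = 0.972, limma), and with the 12 libraries of a size factor of at least 0.8 it was 0.13 (unadjusted p = 0.119, adjusted p = 0.864, limma), so the call was lost in both. Without HF-HI replicate 2 it was 0.21 (unadjusted p = 0.0220, adjusted p = 0.490, limma).

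Relative to the rest of the gene, Atp2b2-202 had a mean share of 10.4% ± 1.5 (SD) in Sham and 13.2% ± 2.45 (SD) in HF-HI, which did not pass the test (unadjusted p = 0.0825, adjusted p = 0.453, diffSplice). The main form, Atp2b2-203, held 52.7% ± 7.38 in Sham and 48.2% ± 4.69 in HF-HI. The log2 change of Atp2b2-203 minus that of the other listed forms was -0.27 (unadjusted p = 0.0530, adjusted p = 0.385, diffSplice). Its share was highest in Sham replicate 1, at 67.6%, and without that library the difference was -0.12 (unadjusted p = 0.296, adjusted p = 0.727, diffSplice). In 5 of 19 alternatives it had an unadjusted p under 0.05, with -0.34 without Sham replicate 7 (unadjusted p = 0.0159, adjusted p = 0.234, diffSplice). Atp2b2-201, which has the same open reading frame length of 3594 bases as Atp2b2-203, had means of 3090.2 and 3401 normalized counts and was lowest in Sham replicate 1, at 1590.5. The 2 forms have different first exons and 3′ ends, and their deviations ran in opposite directions (Pearson r = -0.80, Spearman rho = -0.73, n = 15), while the sum over the gene had a coefficient of variation of 5.30%. Atp2b2-206 (878 and 959) and Atp2b2-204 (186 and 194) had overlapping ranges and unadjusted p of 0.377 and 0.462 (adjusted 0.829 and 0.868, limma).

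**Figure D4:**
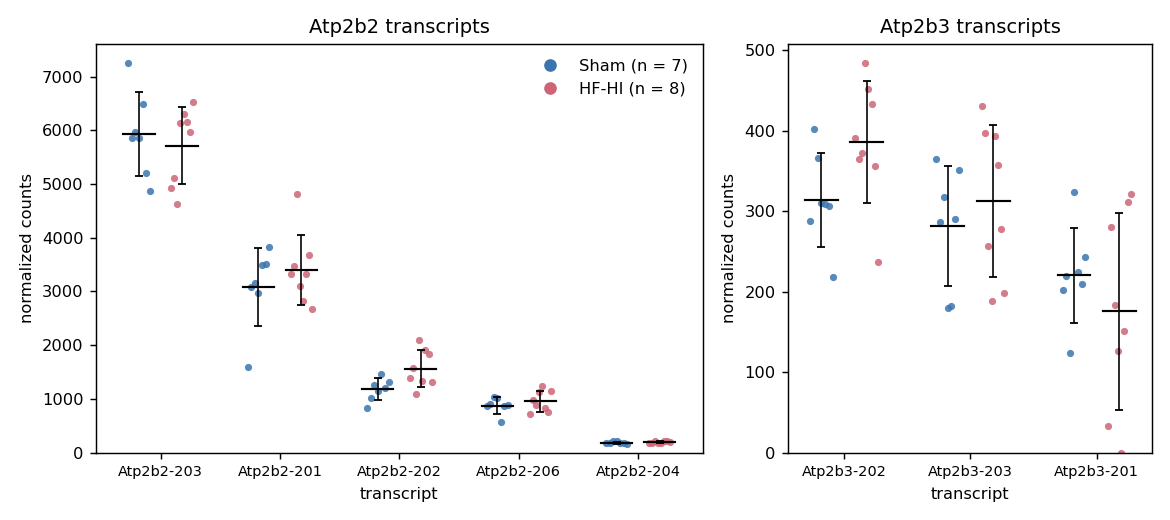
Normalized counts (y axis) of the 5 Atp2b2 and 3 Atp2b3 transcripts, with a point for each library, the mean of each group (bar) and SD (whiskers). Atp2b2-202 sits higher in HF-HI on average (1181 and 1567), and Atp2b3-201 reaches 0 in HF-HI replicate 5.

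Atp2b1, the housekeeping plasma membrane pump, showed no difference beyond its spread. Its single listed transcript of 11 annotated had 8122, 8559 and 9377 normalized counts (lowest, median, highest) in Sham and 7626, 8731 and 9448 in HF-HI. The difference was 0.01 on the log2 scale (95% interval -0.07 to 0.10, unadjusted p = 0.756, adjusted p = 0.956, limma with voom weights).

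Atp2b3 and Atp2b4 were the least abundant members per kilobase, and their estimates were the least precise at gene level (coefficients of variation 9.43% and 9.35%). Atp2b3, a pump largely restricted to neurons, had 715, 812 and 907 normalized counts (lowest, median, highest) in Sham and 756, 849 and 1042 in HF-HI, a log2 difference of 0.08 (95% interval -0.05 to 0.22, unadjusted p = 0.194, adjusted p = 0.728, limma with voom weights). Atp2b4 had 1657, 1865 and 2284 in Sham and 1627, 1789 and 1997 in HF-HI, with 7 of 8 HF-HI libraries below the Sham median. With all libraries it was the only gene of the 9 with a negative difference, -0.10 (95% interval -0.24 to 0.04, unadjusted p = 0.143, adjusted p = 0.690, limma with voom weights), and its interval includes 0. The Atp2b4 difference was -0.05 without Sham replicate 4 (unadjusted p = 0.358, adjusted p = 0.795, limma) and -0.14 without Sham replicate 5 (unadjusted p = 0.0410, adjusted p = 0.461, limma).

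The 3 listed Atp2b3 transcripts are all that are annotated, and they differ at the end of the reading frame, which encodes the calmodulin-binding tail. Atp2b3-203 carries an extra coding exon of 154 bases (chrX:73559864-73560017, plus strand), and Atp2b3-201 ends in its own last exon of 183 bases (chrX:73558032-73558214). Atp2b3-201 had 124, 219 and 323 normalized counts (lowest, median, highest) in Sham and 0, 167 and 321 in HF-HI. HF-HI replicate 5 was listed at 0 reads, which allows up to 2.47 normalized counts for counting error alone, and replicate 1 was at 33.5, while the other 6 HF-HI libraries lay inside the Sham range. The difference in level did not pass the test (-0.14 on the variance-stabilized scale, unadjusted p = 0.232, adjusted p = 0.755, limma).

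As a share of its gene, Atp2b3-201 averaged 27.2% ± 7.61 in Sham and 20.1% ± 14.2 in HF-HI. The diffSplice test gave a log2 difference from the other Atp2b3 forms of -2.39 (unadjusted p = 0.00229, adjusted p = 0.116), a size that depends on how the library at 0 is treated. It was -2.55 without HF-HI replicate 2 (unadjusted p = 0.00237, adjusted p = 0.124, diffSplice). Without HF-HI replicate 5 the difference was -0.65 (unadjusted p = 0.0876, adjusted p = 0.441, diffSplice) and the call was lost, as it was with the size factor as a covariate (-0.83, unadjusted p = 0.265, adjusted p = 0.742, diffSplice). Atp2b3-202, the form with the longest reading frame (3660 bases), had means of 314 and 386 normalized counts (unadjusted p = 0.0548, adjusted p = 0.577, limma). It had an unadjusted p under 0.05 in 5 of 25 alternatives. The difference was 0.11 without HF-HI replicate 8 (unadjusted p = 0.00449, adjusted p = 0.346, limma) and 0.04 with the log2 size factor as a covariate (unadjusted p = 0.390, adjusted p = 0.980, limma). Atp2b3-203 had means of 282 and 312 (unadjusted p = 0.510, adjusted p = 0.881, limma). The 3 Atp2b4 transcripts had unadjusted p of 0.207 (Atp2b4-201, 641 and 543), 0.578 (Atp2b4-206, 986 and 947) and 0.952 (Atp2b4-203, 296 and 298), with adjusted p of 0.733, 0.905 and 0.992 in limma.

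Neither exchanger had a difference that passed the test. Slc8a1 (NCX1) had 1951, 2016 and 2151 pooled normalized counts (lowest, median, highest) in Sham and 1917, 2123 and 2213 in HF-HI, a log2 difference of 0.03 (95% interval -0.04 to 0.11, unadjusted p = 0.357, adjusted p = 0.813, limma with voom weights). Slc8a2 (NCX2), the exchanger that is prominent in brain, had 1486, 1578 and 1700.4 in Sham and 1438, 1596 and 1802 in HF-HI, a log2 difference of 0.01 (95% interval -0.08 to 0.11, unadjusted p = 0.782, adjusted p = 0.956, limma with voom weights). Per kilobase, Slc8a1 made up 63.6% ± 2.15 of the level of the exchangers and Slc8a2 36.4% ± 2.15 (SD, n = 15).

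Slc8a1-201 and Slc8a1-203 are of equal length (2913 bases) and differ in a stretch of 21 coding bases, read from chr17:81442203-81442223 in the former and from chr17:81441861-81441881 in the latter (mm10, minus strand). The stretch belongs to the alternatively spliced part of the large intracellular loop of NCX1. It is shown in capitals with 20 bases on each side, since it is what tells the forms apart (GENCODE M21 transcripts, 5′ to 3′).
Slc8a1-201: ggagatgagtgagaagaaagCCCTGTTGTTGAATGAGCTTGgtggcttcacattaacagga
Slc8a1-203: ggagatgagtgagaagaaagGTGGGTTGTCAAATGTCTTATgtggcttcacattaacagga

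Slc8a1-201 has no window of read length of its own (0 of 2814), because Slc8a1-202 contains all of it. Its Sham libraries spanned 145 to 499.8 normalized counts and its HF-HI libraries 106 to 442, and Slc8a1-203 spanned 159 to 428 and 99.2 to 451. These ranges overlapped almost wholly (unadjusted p = 0.535 and 0.705, adjusted p = 0.891 and 0.937, limma). Deviations of Slc8a1-202 ran opposite to those of Slc8a1-201 (Pearson r = -0.78, Spearman rho = -0.69) and of Slc8a1-203 (r = -0.82, rho = -0.84, n = 15 libraries each), and the pooled gene had a coefficient of variation of 4.81% against 40.2%, 15.2% and 37.2% for Slc8a1-201, Slc8a1-202 and Slc8a1-203.

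Across the 21 transcripts, those with little sequence of their own varied most between libraries of a group. The 3 transcripts that stand alone in the table (Atp2b1-201, Itpr1-201 and Slc8a2-201) had coefficients of variation of 5.57%, 4.13% and 6.37%, and the Atp2a2 forms, with 29.5% and 20.4% of their windows private, had 4.88% and 6.44%. At the other end, Atp2b3-201 with 4.82% private windows had 49.95% and Slc8a1-201 with none had 40.2%. Over the 21 transcripts the rank correlation of private windows with the coefficient of variation was -0.76, and that of the mean normalized count with it was -0.69, so low counts and shared sequence went together with wide spread. These points share libraries and genes, and the correlations are descriptions.

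**Figure D5:**
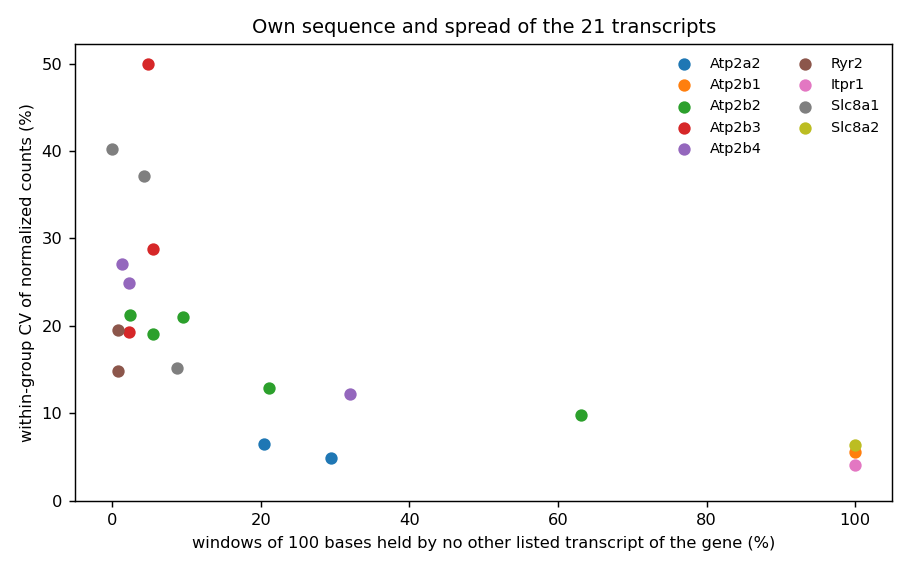
Coefficient of variation of normalized counts within groups (y axis, percent) against the percentage of 100-base windows held by no other listed transcript of the gene (x axis), 1 point per transcript, colored by gene. Transcripts at 100% lie between 4.13% and 6.37%, and those under 10% lie between 14.8% and 49.95%.

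Around the 9 genes, 57 further calcium handling genes were examined, of which 39 were listed with 63 transcripts. An unadjusted p under 0.05 was reached by 12 of the 63 (19.0%, against 8.83% of all transcripts), 7 higher and 5 lower in HF-HI (4.94% and 3.9% of all transcripts), and none passed an adjusted p of 0.1 in limma. The median log2 ratio of the 63 was -0.01. With the log2 size factor as a covariate 1 of the 63 had an unadjusted p under 0.05 (Slc24a2-204), against 5.14% of all transcripts. With the 12 libraries of a size factor of at least 0.8, 4 did (Slc24a2-204, Calb1-201, Calr-201 and Ahcyl2-215), against 6.33% of all transcripts. Without Sham replicate 4 the count was 5 (8.41% of all transcripts), and without Sham replicate 1 or HF-HI replicate 7 it was 7 (7.45% and 7.77% of all transcripts). It was 8 without HF-HI replicate 2 (8.69% of all transcripts).

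Calcium-binding proteins held the largest number of these transcripts, 5 of 11. Calb1-201, for the cytosolic buffer calbindin, spanned 665 to 769 normalized counts across Sham and 594 to 704 across HF-HI, with 7 of 8 HF-HI libraries below the Sham median (difference -0.06 on the variance-stabilized scale, unadjusted p = 0.00645, adjusted p = 0.398, limma). Calr-201, for the luminal chaperone and calcium buffer calreticulin, spanned 1437 to 1611 across Sham and 1155 to 1531 across HF-HI, with 8 of 8 below the Sham median (-0.10, unadjusted p = 0.00828, adjusted p = 0.405, limma). The retained-intron form Calr-204 was higher on average (106 and 191, unadjusted p = 0.0335, adjusted p = 0.530, limma), and the pooled Calr reads did not pass (unadjusted p = 0.0812, adjusted p = 0.609, limma with voom weights). Of the 39 genes only Calb1 had an unadjusted p under 0.05 when reads were pooled (log2 difference -0.13, unadjusted p = 0.00756, adjusted p = 0.334, limma with voom weights). Among all 7869 genes and unassigned transcripts tested in this way, 9.34% had one.

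Exchangers and pumps outside the 9 genes gave 3 of 11 transcripts. The potassium-dependent exchanger transcript Slc24a2-204 was higher (4127 and 4585, unadjusted p = 0.0207), Slc24a3-202 was lower (275 and 155, unadjusted p = 0.0170), and Slc8a3-202 of the exchanger NCX3 was higher (157 and 188, unadjusted p = 0.0381), with adjusted p of 0.483, 0.470 and 0.539 in limma. Means went the other way for Slc24a3-204 (311 and 413), Slc8a3-201 (142 and 121) and Slc24a2-203 (4965 and 4857), but not for Slc24a2-209 (137 and 142). Pooled reads of Slc24a2, Slc24a3 and Slc8a3 did not pass (unadjusted p = 0.213, 0.355 and 0.393, adjusted p = 0.743, 0.812 and 0.829, limma with voom weights). Slc24a3-202 had 176, 223 and 621 normalized counts (lowest, median, highest) in Sham and 120.0, 141 and 233 in HF-HI, and the highest came from Sham replicate 2. Without that library the Sham mean was 217 ± 40.4 (SD, n = 6), and the difference on the variance-stabilized scale went from -0.18 to -0.11. Partners and regulators gave 3 of 22: Tmem38a-201, for a cation channel of the reticulum that balances charge during calcium release, was higher (603 and 634, unadjusted p = 0.0431), Ahcyl1-201, for an inhibitor of inositol trisphosphate receptors, was lower (1858 and 1582, unadjusted p = 0.0444), and Ahcyl2-215, a retained intron, was higher (121 and 209.8, unadjusted p = 0.0185), with adjusted p of 0.555, 0.555 and 0.476 in limma. The other listed Ahcyl1 form, Ahcyl1-203, was higher on average (583 and 749). Pooled Ahcyl1 and Ahcyl2 reads did not pass (unadjusted p = 0.170 and 0.251, adjusted p = 0.715 and 0.771, limma with voom weights). Over 15 refits, each missing a different library, Calb1-201, Calr-201, Slc24a3-202 and Ahcyl2-215 had an unadjusted p under 0.05 in 15, Slc24a2-204 in 13, Calr-204 in 9, Slc8a3-202 in 7, Ahcyl1-201 in 5 and Tmem38a-201 in 4. Without HF-HI replicate 2, Slc8a3-202, Ahcyl1-201 and Tmem38a-201 had unadjusted p of 0.0762, 0.0894 and 0.0623 (adjusted 0.618, 0.638 and 0.592, limma). The other release channels (Ryr1, Ryr3 and Itpr2, 4 transcripts) and store-operated entry (4 transcripts of Stim1, Stim2, Orai2 and Saraf) gave none.

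Finally, the genes whose levels moved most closely with the most abundant pump and the most abundant release channel were listed, after subtracting group means, over 15 libraries and 7860 genes. For Atp2a2 these were Plekhb1 (Pearson r = 0.88), Enah (0.87) and Egln1 (0.87), and for Itpr1 they were Foxo1 (0.88), Secisbp2l (0.86) and Clic4 (0.82), against medians over all genes of 0.01 and -0.00. In the same order, Spearman rho was 0.91, 0.72 and 0.84 with Atp2a2 and 0.875, 0.61 and 0.82 with Itpr1. Among the members, Atp2a2 moved with Atp2b2 (r = 0.81, rho = 0.69) and Itpr1 (r = 0.69, rho = 0.60). It moved opposite to Atp2b4 (r = -0.62, rho = -0.55), and Itpr1 moved with Atp2b1 (r = 0.78, rho = 0.59). These are descriptions over shared libraries, chosen for their size.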

How the data were processed

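Reads came from rRNA-depleted stranded total RNA. The authors aligned them to mm10 with STAR, estimated counts per transcript with eXpress, which divides shared reads among transcripts, and normalized with DESeq2. The annotation release and the strand setting of eXpress are not given in the sources used here. The deposited values are variance-stabilized values on a log2 scale, 1 column per library, for 10370 transcripts whose lowest mean was 107.9 normalized counts. Inverting the transformation gave whole reads for 100% of values (within 0.1 reads) and the size factors. GENCODE M21 named 10241 transcripts, and the other 129 were each kept as a gene, giving 7869.

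The study compared HF-HI with Sham by a Wald test on counts. As the deposited values are not counts, limma 3.58.1 with a trended prior was fitted to the deposited values (R 4.3.3), voom to recovered reads summed over each gene's listed transcripts, and diffSplice to reads per transcript. Tests were two-sided, with Benjamini-Hochberg adjustment over the whole table and thresholds of 0.1 (adjusted) and 0.05 (unadjusted). Scripts were tested on simulated data. Levels per kilobase sum each listed transcript's normalized counts over its length, and unlisted forms are left out. Listed were 5 of 8 annotated transcripts for Atp2b2, 3 of 8 for Atp2b4, 3 of 6 for Slc8a1 and 1 of 2 for Slc8a2.

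The labels do not name the animal behind each library, so p-values cover the spread between libraries. No 2 libraries were alike within sampling noise (closest pair: chi-square per transcript 9.57 over 105 pairs). Same-numbered Sham and HF-HI libraries did not deviate together (r from -0.14 to 0.09), so the numbers were not used as pairs.

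Every listed transcript of the 9 genes is named. Other calcium handling genes are named where a transcript had an unadjusted p under 0.05 (some of these are not reported here), and 3 correlated genes each are named for the most abundant pump or exchanger and release channel. The members and lists were chosen with earlier results of these data known. The alternatives were other scalings, models, filters of low values (a mean of 200), library weights, a depth covariate, a replicate block and leaving out each library. The subset with a size factor of at least 0.8 was chosen after seeing the data.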

Additional observations from a re-analysis of the deposited data

Results flagged for a closer look

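Of 54 sets of 7 or 8 values (the transcripts and pooled genes in each group), 6 had an end value far from the rest by Dixon's criterion, and chance gives about 1 in 20. Atp2b2-201 was lowest in Sham replicate 1, at 1590.5 normalized counts with the next library at 2979. Atp2b2-206 was lowest in Sham replicate 5, at 575 with the next at 864. Atp2b4-201 was highest in Sham replicate 4, at 1015 with the next at 674. Slc8a1-202 was highest in HF-HI replicate 7, at 1908 with the next at 1583. Pooled Atp2a2 was highest in Sham replicate 5, at 9883 with the next at 9149.8, and lowest among HF-HI in replicate 1, at 8257 with the next at 8986.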

How the results depend on the processing

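None of the differences that were called changed direction. The 2 member transcripts with an unadjusted p under 0.05 became 0 with the log2 size factor as a covariate and 1 among libraries with a size factor of at least 0.8, and leaving out single libraries gave 2 to 3. Of all transcripts, 5.14%, 6.33% and 7.21% to 9.52% had an unadjusted p under 0.05 in these settings. The 1 gene, Ryr2, was called under all 22 alternatives (adjusted p 0.224 to 0.796), and the gene count was 2 with quality weights and 1 to 3 on leaving out single libraries, with 3 without Sham replicate 5 and 2 without HF-HI replicate 1. Of all genes, 10.5% had an unadjusted p under 0.05 with quality weights and 7.84% to 10.4% on leaving out single libraries. The 3 transcripts called for their share became 0 with the covariate (9.59% of all shares tested), and 3 to 4 on leaving out single libraries (12.2% to 13.9%). Their adjusted count was 0 to 1, the 1 being Atp2b3-201 without HF-HI replicate 3 or 8 (adjusted p 0.0428 without replicate 8, diffSplice). In those refits 2.08% and 2.27% of all shares tested had an adjusted p under 0.1. The 12 transcripts of other calcium handling genes became 1 with the covariate, 4 in the deeper libraries and 5 to 14 on leaving out single libraries, against the shares of all transcripts given above. With the replicate number as a block, which leaves out HF-HI replicate 8, the counts were 3 transcripts, 3 genes, 4 shares and 13 transcripts of the other calcium handling genes, and 3 of 14 libraries were closest to their own number. Of all transcripts, genes and shares, 8.58%, 8.91% and 12.3% had an unadjusted p under 0.05 with this block. The cause of these changes was not tested. Of the single results under alternatives, 514 of 523 for transcripts, 192 of 198 for genes and 328 of 342 for shares kept their direction if called and their side of the threshold. Atp2b3-201 had 0 to 476 reads a library, the 0 in HF-HI replicate 5, whose size factor was 1.22.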
